A study of Mus musculus with 6 samples.

Results

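The glucocorticoid receptor gene Nr3c1, the steroid-activating enzyme gene Hsd11b1 and 8 genes known to be induced by the receptor (Tsc22d3, Fkbp5, Zbtb16, Klf9, Cebpd, Errfi1, Sgk1 and Mt2) were followed in cold-stimulated inguinal fat. They were taken by symbol and made up 10 of the 17342 named genes measured. RNA came from the inguinal white adipose tissue of C57BL/6 mice aged 8 weeks, a fat pad under the skin in which cold brings out beige, heat-producing cells. Mice with the genotype Rarres2-/-, which lack a working gene for the adipocyte-secreted protein chemerin, were compared with wild-type (WT) mice, and both groups had been exposed to cold. Rarres2-/- libraries carry the replicate numbers 4 to 6 and WT libraries 1 to 3 (n = 3 each). The comparison asks how loss of chemerin alters the transcriptome of fat in the cold. The sources used here do not give the sex of the mice, the temperature and length of the cold, or which part of Rarres2 is missing. Nothing in the labels ties each library to its own mouse, so p-values measure the spread between libraries, which may be technical. The 10 genes were selected on their biology with their FPKM and Rarres2-/- minus WT differences in these libraries known, so those differences are described here and carry no test.

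Glucocorticoids reach fat from the adrenal gland. Inside the cell, the product of Hsd11b1 regenerates active corticosterone from its inert keto form, and the hormone releases the receptor from its chaperones and lets it enter the nucleus. There the receptor binds DNA as a dimer, at a palindrome of paired arms, and switches on genes such as Tsc22d3 and Fkbp5. In adipose tissue glucocorticoids are known for promoting adipocyte differentiation and for damping inflammation. Several of the target genes also answer to other signals, among them insulin for Sgk1 and metals for Mt2.

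Expression was deposited as FPKM, that is, fragments per length of transcript and per total of the library. FPKM does not give the absolute depth. From the steps between the lowest values, WT replicate 1 had 0.495 times the depth of WT replicate 2, and the other 4 libraries had 0.700 to 1.01 times. In WT replicate 1, Snord2 alone made up 62.1% of the summed FPKM of named genes. The most abundant gene of each other library made up 4.99% to 16.7%. Median FPKM was 3.28 in WT replicate 1 and 2.90 to 3.45 in the other libraries. Rarres2 itself was at 0.260, 6.35 and 1.41 FPKM in Rarres2-/- fat, against 436, 610 and 505 FPKM in WT fat. Among adipocyte genes, Adipoq was at 2118 to 2809 FPKM in Rarres2-/- and 2315 to 2563 FPKM in WT fat. The lipid droplet genes Plin1 (680 to 844 FPKM in Rarres2-/-, 526 to 602 FPKM in WT) and Cidec (1786 to 2037 FPKM in Rarres2-/-, 1564 to 1617 FPKM in WT) were higher in every Rarres2-/- library. Of all genes tested below, 5.81% were. The other listed adipocyte genes, Fabp4, Lep and Lpl, overlapped between the genotypes, with Lpl at 2017 to 4582 FPKM in Rarres2-/- and 2853 to 3855 FPKM in WT fat. Rarres2-/- replicate 4 and WT replicate 1 stood apart in cell type markers. Their summed level of 5 endothelial genes was 110 and 169 FPKM, against 34.4 to 39.6 FPKM in the other 4 libraries, and WT replicate 1 had the lowest sums of progenitor, macrophage and mast cell genes. Values are therefore also given without these libraries. In whole tissue, fewer cells of a type and less RNA per cell cannot be told apart. Summed marker levels in Rarres2-/- and WT fat ran from 29461 to 61250 and 40270 to 49620 FPKM for 6 adipocyte genes, most of it Fabp4, and from 34.5 to 110 and 34.4 to 169 FPKM for the endothelial genes. They ran from 1088 to 1482 and 599.8 to 2444 FPKM for 6 progenitor and fibroblast genes, from 416 to 545 and 189 to 940 FPKM for 5 of 6 listed macrophage genes, and from 71.6 to 99.1 and 8.02 to 151 FPKM for 5 mast cell genes. Sums were 237 to 388 and 134 to 1143 FPKM for 6 skeletal muscle genes. WT replicate 1 held the 1143 FPKM, beside 134 and 218 FPKM in WT replicates 2 and 3. For 5 T cell genes the sums were 4.59 to 7.05 and 1.80 to 17.0 FPKM. The B cell gene Cd79a was at 0.171, 0.113 and 5.23 FPKM in Rarres2-/- replicates 4, 5 and 6 and at 0.260, 0.215 and 7.99 FPKM in WT replicates 1, 2 and 3, so that Rarres2-/- replicate 6 and WT replicate 3 stood apart in it. Of 5 epithelial genes, Krt8, Krt18, Krt14 and Krt5 were each listed at 0 in some libraries, and the sums were 0.0909 to 1.40 and 0.0616 to 0.286 FPKM.

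Testing covered 11086 genes averaging 1 FPKM or more, all 10 of these among them, on log2(FPKM + 1), where differences of low genes come out too small. By limma, 0 of 11086 genes passed an adjusted p of 0.05 (0% called). The smallest adjusted p was 0.0597 by limma, that of Rarres2, with a log2 difference of -7.51 (SE 0.592). As even Rarres2 was not called, the count of 0 does not show that other genes were unchanged. An unadjusted p under 0.05 was reached by 436 genes (3.93%). Of the 10 genes, 7 had a higher and 3 a lower mean in Rarres2-/- fat. The median log2 difference of the 10 was 0.53, beside -0.01 for all tested genes. It was 0.28 when Rarres2-/- replicate 4 was left out, 0.30 when WT replicate 2 was and 0.33 when WT replicate 3 was. All 3 Rarres2-/- libraries lay above all 3 WT libraries for Tsc22d3, Cebpd and Errfi1 (3 of 10, beside 5.81% of all tested genes), and below them for Nr3c1 (1 of 10, beside 4.53%). These shares bear on genes picked with the values known, and nothing is read from them.

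**Figure D1:**
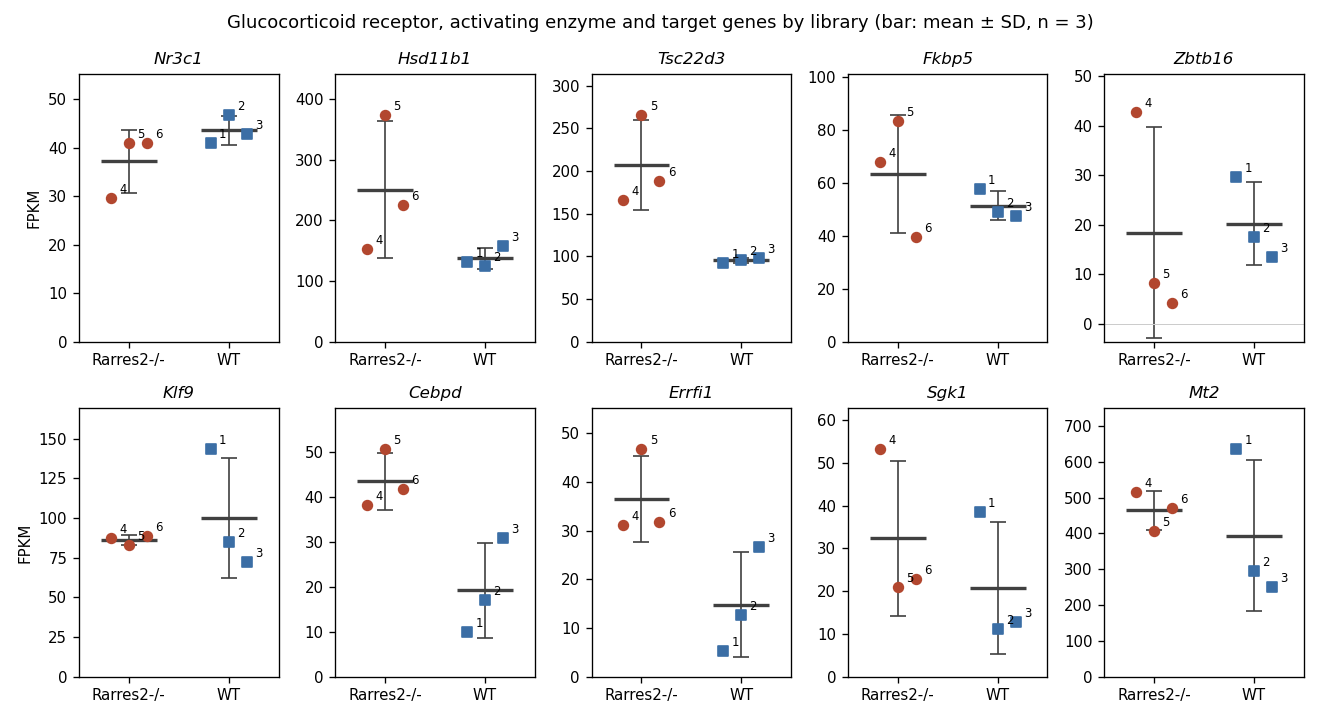
FPKM of the 10 genes in each library, with Rarres2-/- on the left (circles) and WT on the right (squares), digits giving the replicate, and bars the mean ± SD (n = 3 each). Tsc22d3 sits at 166 to 266 FPKM in Rarres2-/- and 92.6 to 98.0 FPKM in WT fat, while Zbtb16 and Sgk1 are highest in Rarres2-/- replicate 4 and WT replicate 1.

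By level, FPKM being scaled to length, Mt2 came first in both genotypes. In Rarres2-/- fat the order of means was Mt2 (465 FPKM), Hsd11b1 (251), Tsc22d3 (207), Klf9 (86.3), Fkbp5 (63.6), Cebpd (43.5), Nr3c1 (37.2), Errfi1 (36.5), Sgk1 (32.3) and Zbtb16 (18.5). Mt2 stood clear of Hsd11b1 and Tsc22d3 of Klf9, and every other pair of neighbours had overlapping libraries. In WT fat the order of means was Mt2 (394 FPKM), Hsd11b1 (137), Klf9 (100.2), Tsc22d3 (95.5), Fkbp5 (51.5), Nr3c1 (43.6), Sgk1 (20.8), Zbtb16 (20.3), Cebpd (19.2) and Errfi1 (14.8). There Mt2, Tsc22d3, Fkbp5 and Nr3c1 each stood clear of the next gene down, and the other neighbours overlapped.

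The receptor gene Nr3c1 (chromosome 18, 39410545 to 39519421, GRCm38) varied least of the 10 over the whole set. It was at 29.7, 41.0 and 41.0 FPKM in Rarres2-/- replicates 4, 5 and 6, against 41.0, 46.8 and 42.9 FPKM in WT replicates 1, 2 and 3. Rarres2-/- replicate 4 was low, and the other Rarres2-/- libraries lay just under the lowest WT library. The mean was 37.2 ± 6.49 FPKM in Rarres2-/- and 43.6 ± 2.97 FPKM in WT fat (SD, n = 3 each), with a log2 difference of -0.24 (SE 0.177). Without Rarres2-/- replicate 4 the difference was -0.09.

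The profile of Nr3c1 over the 6 libraries was matched most closely by Rpl22, Dtwd1, Rpl27a and Cbx3. Their mean-centred log2 values differed from those of Nr3c1 by a root mean square of 0.033, 0.047, 0.051 and 0.055 over 6 libraries, where the spread of Nr3c1 itself was 0.198. Rpl22 and Rpl27a encode ribosomal proteins and Cbx3 a chromatin protein. Likeness over 6 libraries is a description of these libraries.

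Hsd11b1 (chromosome 1, 193221640 to 193264045) was at 153, 375 and 225 FPKM in Rarres2-/- replicates 4, 5 and 6, against 131, 124 and 157 FPKM in WT replicates 1, 2 and 3. Rarres2-/- replicates 5 and 6 lay above all WT libraries, and Rarres2-/- replicate 4 lay just below WT replicate 3. The mean was 251 ± 113 FPKM in Rarres2-/- and 137 ± 17.6 FPKM in WT fat (SD, n = 3 each), with a log2 difference of 0.77 (SE 0.332). With 1 library left out the difference ran from 0.44, without Rarres2-/- replicate 5, to 1.08, without Rarres2-/- replicate 4. H6pd, which makes the cofactor that Hsd11b1 needs, was at 97.0, 60.7 and 58.6 FPKM in Rarres2-/- fat and 56.6, 53.8 and 52.6 FPKM in WT fat. The log2 difference of H6pd was 0.36 (SE 0.223, adjusted p = 0.999 by limma, higher in all 3 Rarres2-/- libraries). Hsd11b2, which inactivates the hormone, was at 0.535 to 1.14 FPKM in Rarres2-/- and 0.275 to 0.893 FPKM in WT fat. Nr3c2, the mineralocorticoid receptor gene, was at 0.497 to 1.84 FPKM in Rarres2-/- and 0.451 to 0.842 FPKM in WT fat. Both lay under the level set for testing, and within each library Nr3c1 was 16.1 to 82.4 times Nr3c2 in Rarres2-/- and 54.9 to 95.0 times in WT fat.

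Among the target genes, Tsc22d3, Cebpd and Errfi1 were higher in every Rarres2-/- library than in any WT library. Tsc22d3 (chromosome X, 140539528 to 140600522) encodes a leucine zipper protein that mediates anti-inflammatory actions of glucocorticoids. It was at 166, 266 and 188 FPKM in Rarres2-/- replicates 4, 5 and 6, against 92.6, 96.0 and 98.0 FPKM in WT replicates 1, 2 and 3. The WT libraries were within 1.06 times of each other, and the lowest Rarres2-/- library lay well above them. The mean was 207 ± 52.7 FPKM in Rarres2-/- and 95.5 ± 2.74 FPKM in WT fat (SD, n = 3 each), a ratio of 2.17 and a log2 difference of 1.08 (SE 0.213). With 1 library left out the log2 difference ran from 0.88 to 1.22, and without Rarres2-/- replicate 4 and WT replicate 1 it was 1.20 (SE 0.178).

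The profiles most like that of Tsc22d3 were those of Arl4a, Gpam, Atrn and Pik3cb, with a root mean square difference of 0.206, 0.229, 0.243 and 0.243 over 6 libraries beside a spread of 0.576 for Tsc22d3 itself. Gpam encodes an enzyme that starts triglyceride synthesis, and Pik3cb a catalytic subunit of phosphoinositide kinase. Arl4a was at 99.6, 142 and 125 FPKM in Rarres2-/- and 63.4, 76.2 and 77.6 FPKM in WT fat. Genes picked for likeness to Tsc22d3 in these same libraries part the genotypes by that choice, so nothing is read from it.

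Of the 10 genes, 7 had windows from 250 bases before to 50 after a transcription start in RefSeq (GRCm38.p6), 15 windows in all, of which Tsc22d3 had 3. Searched on both strands, a single arm of the receptor's palindrome, AGAACA, was found in 4 of these 15 windows, beside 19.0% of all 32851 windows of the same length. The windows with it were 3 of the 6 of Sgk1 and 1 of the 3 of Tsc22d3. The Tsc22d3 window belongs to the start farthest upstream, at 140600522 on the minus strand, and is shown because this gene separated the genotypes with the narrowest range among WT libraries. The arm, in capitals as its reverse complement, begins 185 bases before the start.
Tsc22d3, chrX:140600473-140600772, minus strand: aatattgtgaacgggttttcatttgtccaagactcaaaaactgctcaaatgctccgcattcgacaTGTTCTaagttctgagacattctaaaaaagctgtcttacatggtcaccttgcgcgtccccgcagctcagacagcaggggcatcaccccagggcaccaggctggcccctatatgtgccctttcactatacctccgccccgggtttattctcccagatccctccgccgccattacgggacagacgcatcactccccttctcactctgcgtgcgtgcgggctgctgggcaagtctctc

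Cebpd (chromosome 16, 15887286 to 15889545) encodes a transcription factor of early adipocyte differentiation. It was at 38.2, 50.6 and 41.7 FPKM in Rarres2-/- replicates 4, 5 and 6, against 9.95, 17.0 and 30.8 FPKM in WT replicates 1, 2 and 3. The WT libraries spread over 3.09 times, with replicate 1 the lowest. The mean was 43.5 ± 6.42 FPKM in Rarres2-/- and 19.2 ± 10.6 FPKM in WT fat (SD, n = 3 each), with a log2 difference of 1.26 (SE 0.373).

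Errfi1 (chromosome 4, 150853796 to 150868889), an inhibitor of the epidermal growth factor receptor, followed the same order of WT libraries. It was at 31.1, 46.7 and 31.7 FPKM in Rarres2-/- replicates 4, 5 and 6, against 5.32, 12.6 and 26.5 FPKM in WT replicates 1, 2 and 3. The spread within WT fat was 4.99 times, larger than the ratio of 2.46 between the genotype means. The mean was 36.5 ± 8.86 FPKM in Rarres2-/- and 14.8 ± 10.8 FPKM in WT fat (SD, n = 3 each), with a log2 difference of 1.47 (SE 0.505). Without WT replicate 1 the log2 difference of Errfi1 was 0.93. Without Rarres2-/- replicate 4 and WT replicate 1 the log2 differences were 1.03 for Errfi1 and 0.97 for Cebpd. Neither gene overlapped between genotypes in the full set, so leaving libraries out could not bring overlap. In WT replicate 1, where both genes were lowest, the progenitor and macrophage sums were 599.8 and 189 FPKM, beside 2220.1 to 2444 and 910.3 to 940 FPKM in WT replicates 2 and 3. In Rarres2-/- fat, where both genes were higher than in any WT library, these sums were 1088 to 1482 and 416 to 545 FPKM. Those sums lay below the sums of WT replicates 2 and 3. The part of these cell types in the Cebpd and Errfi1 values was not tested.

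**Figure D2:**
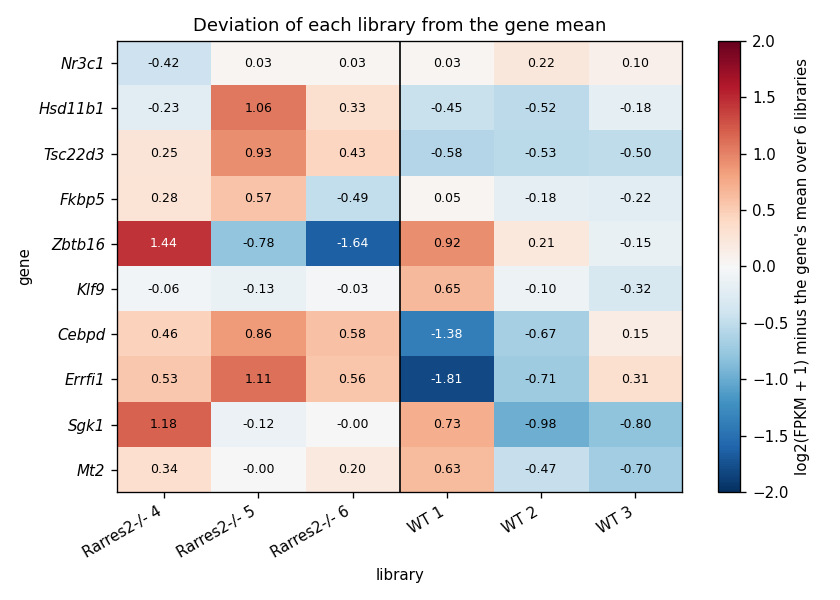
Deviation of log2(FPKM + 1) from each gene's mean over 6 libraries, with Rarres2-/- libraries left of the line and WT libraries right of it. Cebpd and Errfi1 are lowest in WT replicate 1, and Zbtb16 and Sgk1 are highest in Rarres2-/- replicate 4, followed by WT replicate 1.

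Zbtb16 and Sgk1 were ordered by library more than by genotype. Both were highest in Rarres2-/- replicate 4 and WT replicate 1, as was Mt2, described below. Zbtb16 (chromosome 9, 48651797 to 48836225), a zinc finger transcription factor strongly induced by glucocorticoids in many cells, was at 42.9, 8.37 and 4.18 FPKM in Rarres2-/- replicates 4, 5 and 6. In WT replicates 1, 2 and 3 it was at 29.6, 17.7 and 13.6 FPKM. Its 10.3-fold range within Rarres2-/- fat was the widest of the 10 genes. The mean was 18.5 ± 21.2 FPKM in Rarres2-/- and 20.3 ± 8.35 FPKM in WT fat (SD, n = 3 each), and the log2 difference was -0.66 (SE 0.753). Without Rarres2-/- replicate 4 and WT replicate 1, Rarres2-/- fat held 4.18 to 8.37 FPKM and WT fat 13.6 to 17.7 FPKM, a log2 difference of -1.24 (SE 0.297). With 1 library left out it ran from -1.54, without Rarres2-/- replicate 4, to 0.00, without Rarres2-/- replicate 6, and it was -0.36 without WT replicate 1 and -0.43 without Rarres2-/- replicate 5.

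Sgk1 (chromosome 10, 21882184 to 21999903), a kinase that promotes sodium transport and cell survival, was at 53.2, 20.9 and 22.8 FPKM in Rarres2-/- replicates 4, 5 and 6. In WT replicates 1, 2 and 3 it was at 38.5, 11.1 and 12.7 FPKM. The highest library of each genotype was the one with high endothelial markers, and the genotypes overlapped. The mean was 32.3 ± 18.1 FPKM in Rarres2-/- and 20.8 ± 15.4 FPKM in WT fat (SD, n = 3 each), with a log2 difference of 0.70 (SE 0.537). With 1 library left out it ran from 0.29, without Rarres2-/- replicate 4, to 1.24, without WT replicate 1, and it was 0.39 without WT replicate 2. Without Rarres2-/- replicate 4 and WT replicate 1, Rarres2-/- fat held 20.9 to 22.8 FPKM and WT fat 11.1 to 12.7 FPKM, a log2 difference of 0.83 (SE 0.118). Of the 5 endothelial genes, Pecam1, Cdh5, Kdr and Emcn were highest in these libraries, with Cdh5 at 36.0, 7.58 and 8.56 FPKM in Rarres2-/- and 68.0, 7.48 and 7.13 FPKM in WT fat. Tek was not, at 10.5, 8.92 and 6.22 FPKM in Rarres2-/- and 10.1, 14.6 and 12.1 FPKM in WT fat. The part of the endothelial genes in the Zbtb16 and Sgk1 values was not tested.

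**Figure D3:**
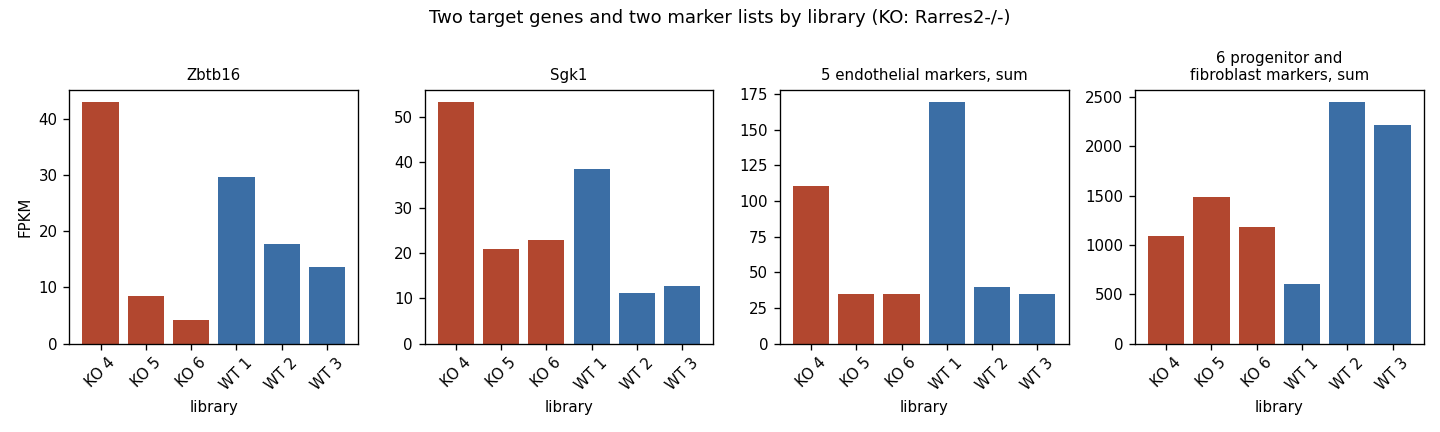
FPKM of Zbtb16 and Sgk1 and summed FPKM of 5 endothelial and 6 progenitor and fibroblast markers in each library, Rarres2-/- (KO) left of WT. Zbtb16, Sgk1 and the endothelial sum are each highest in Rarres2-/- replicate 4 and WT replicate 1, where the endothelial sums are 110 and 169 FPKM.

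The complete palindrome, AGAACA and TGTTCT with 3 free bases between them, occurred in 3 of the 32851 windows, and 1 of these was a window of Sgk1. It is shown because it is the only member window with both arms at the spacing the receptor dimer binds. Arms are in capitals, the palindrome begins 189 bases before the start at 21993890, and a further arm begins 242 bases before it. The match covers 21993701 to 21993715 on chromosome 10, inside the span of Sgk1 transcripts that begin farther upstream.
Sgk1, chr10:21993640-21993939, plus strand: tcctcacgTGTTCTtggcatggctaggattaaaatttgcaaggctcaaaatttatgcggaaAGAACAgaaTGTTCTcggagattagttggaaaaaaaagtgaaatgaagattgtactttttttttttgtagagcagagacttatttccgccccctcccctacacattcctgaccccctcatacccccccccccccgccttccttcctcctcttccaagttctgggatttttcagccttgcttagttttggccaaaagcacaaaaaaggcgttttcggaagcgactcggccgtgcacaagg

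Fkbp5, Klf9 and Mt2 had means that differed between genotypes by less than the SD of the more variable genotype, and their libraries overlapped. Fkbp5 (chromosome 17, 28398753 to 28486149) encodes a co-chaperone that holds the receptor in a state of low hormone affinity and so acts as feedback. It was at 67.8, 83.5 and 39.4 FPKM in Rarres2-/- replicates 4, 5 and 6, against 57.6, 49.2 and 47.6 FPKM in WT replicates 1, 2 and 3. Rarres2-/- replicate 6 was the lowest of all libraries and replicate 5 the highest. The mean was 63.6 ± 22.3 FPKM in Rarres2-/- and 51.5 ± 5.39 FPKM in WT fat (SD, n = 3 each), with a log2 difference of 0.24 (SE 0.283). It was 0.01 without Rarres2-/- replicate 5 and 0.54 without Rarres2-/- replicate 6.

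Klf9 (chromosome 19, 23141226 to 23168129), a zinc finger transcription factor, was the most even gene within Rarres2-/- fat, at 87.3, 82.9 and 88.9 FPKM. WT replicates 1, 2 and 3 were at 143, 84.7 and 72.6 FPKM, on both sides of the Rarres2-/- values. The mean was 86.3 ± 3.12 FPKM in Rarres2-/- and 100.2 ± 37.9 FPKM in WT fat (SD, n = 3 each), with a log2 difference of -0.15 (SE 0.266). The difference was 0.14 when WT replicate 1 was left out, -0.24 when WT replicate 2 was and -0.35 when WT replicate 3 was.

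Mt2 (chromosome 8, 94172618 to 94173567) encodes a metallothionein, a small protein that binds zinc and copper. It was at 517, 408 and 471 FPKM in Rarres2-/- replicates 4, 5 and 6, against 635, 296 and 251 FPKM in WT replicates 1, 2 and 3. The highest value of all was in WT replicate 1, followed by Rarres2-/- replicate 4. The other WT libraries lay below all Rarres2-/- libraries. The mean was 465 ± 54.6 FPKM in Rarres2-/- and 394 ± 210.04 FPKM in WT fat (SD, n = 3 each), with a log2 difference of 0.36 (SE 0.364). Without WT replicate 1 it was 0.76, and without WT replicate 3 it was 0.09. Mt2 and its neighbour Mt1 are similar in sequence, and the sources used here do not say how reads shared between them were counted.

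The Mt2 window is shown for the metal response core, TGCACNC or TGCGCNC, which it held 4 times on both strands together. Of all windows 25.7% held at least 1 match and 0.517% held 4 or more. The matches are in capitals and begin 223, 128 and 50 bases before the start at 94172618 and 4 bases after it. AGAACA was not among the letters of this window.
Mt2, chr8:94172368-94172667, plus strand: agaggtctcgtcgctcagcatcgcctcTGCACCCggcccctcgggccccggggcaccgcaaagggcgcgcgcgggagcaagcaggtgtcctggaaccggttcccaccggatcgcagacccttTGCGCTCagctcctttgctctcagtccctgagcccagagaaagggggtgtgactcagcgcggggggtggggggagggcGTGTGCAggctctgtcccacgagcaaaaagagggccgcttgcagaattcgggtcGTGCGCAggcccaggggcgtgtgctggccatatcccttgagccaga

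**Figure D4:**
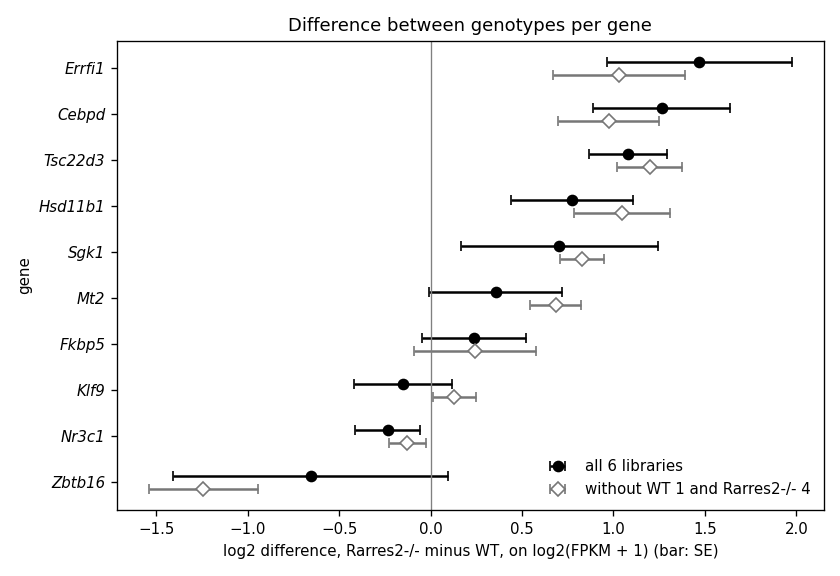
Log2 difference, Rarres2-/- minus WT, of each gene on log2(FPKM + 1) with its SE, for all 6 libraries (filled circles) and without WT replicate 1 and Rarres2-/- replicate 4 (open diamonds). Errfi1 (1.47), Cebpd (1.26) and Tsc22d3 (1.08) lie farthest right with all libraries, and Klf9 is on the left with all libraries (-0.15) and on the right without the pair (0.13).

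Without Rarres2-/- replicate 4 and WT replicate 1, 6 of the 10 genes were higher in both remaining Rarres2-/- libraries than in both remaining WT libraries (Hsd11b1, Tsc22d3, Cebpd, Errfi1, Sgk1 and Mt2), and 2 were lower (Nr3c1 and Zbtb16). Of all tested genes, 31.7% were higher and 26.5% lower in that sense. Tsc22d3, Cebpd, Errfi1 and Nr3c1 did not overlap in the full set, so their place here was fixed in advance. The 10 genes were picked with the values known, and nothing is read from these shares. In the same 4 libraries the progenitor and fibroblast sum was 1186 to 1482 FPKM in Rarres2-/- and 2220.1 to 2444 FPKM in WT fat. The macrophage sum was 416 to 528 FPKM in Rarres2-/- and 910.3 to 940 FPKM in WT fat, and the mast cell sum 89.2 to 99.1 FPKM in Rarres2-/- and 126 to 151 FPKM in WT fat. The part of these cell types in the values of the 10 genes was not tested.

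A list of 60 other genes of the same pathway, chosen with earlier results of these libraries known, gave the setting of these values. Of 58 with a row, 55 were tested. By limma 0 passed in either direction, beside 0% of all genes, and 7 had an unadjusted p under 0.05, beside 3.93% of all genes. Without Rarres2-/- replicate 4 and WT replicate 1 limma called 68 of all genes (0.613%) and 1 of the 55, Ddit4. With libraries weighted by their scatter it called 1524 of all genes (13.7%) and 8 of the 55, in a fit where Rarres2-/- replicates 4, 5 and 6 had weights of 0.179, 6.19 and 0.736, so that its Rarres2-/- side rests mainly on replicate 5. Means of log2(FPKM + 1) were higher in Rarres2-/- fat for 37 and lower for 18, and 48.6% of all tested genes had a higher mean on this scale. The median log2 difference was 0.12. In 7 of the 55 genes all Rarres2-/- libraries lay above all WT libraries and in 0 below, beside 5.81% and 4.53% of all tested genes.

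Chaperones that hold the receptor ready for hormone had the narrowest range of differences of the lists with more than 3 tested genes. Of the 12, 0 separated the genotypes, beside 5.81% higher and 4.53% lower of all tested genes. A higher mean was seen in 8 and a lower one in 4, and the log2 differences ran from -0.19 to 0.14 with a median of 0.05. St13, which works with the chaperone Hsp70, was at 136 to 165 FPKM in Rarres2-/- and 130 to 141 FPKM in WT fat, with a log2 difference of 0.14. Stub1, a ubiquitin ligase of chaperone clients, had a log2 difference of -0.19 and Dnajb1 one of 0.13. Of 10 coregulators 4 had a higher and 6 a lower mean (median -0.07). Nrip1, a corepressor of nuclear receptors with a known role in fat, was at 15.3, 6.79 and 7.33 FPKM in Rarres2-/- and 5.50, 3.58 and 4.52 FPKM in WT fat. Its log2 difference was 0.89 (SE 0.305, adjusted p = 0.999 by limma, higher in 3 of 3 Rarres2-/- libraries). Ep300, a histone acetyltransferase, had a log2 difference of -0.30. In the list of steroid supply and mineralocorticoid receptor, 3 of 5 genes with a row were tested, with H6pd at 0.36, Abcb1a, a steroid-exporting pump, at 0.14 and Srd5a1, a steroid reductase, at -0.05 (median 0.14).

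Anti-inflammatory targets had 7 higher and 2 lower means of log2(FPKM + 1) among 9 (median log2 difference 0.35). Tnfaip3, an inhibitor of NF-kappaB signalling, was at 3.33, 1.89 and 2.06 FPKM in Rarres2-/- and 1.14, 1.20 and 1.58 FPKM in WT fat. Its log2 difference was 0.55 (SE 0.206, adjusted p = 0.999 by limma). Lcn2 and Nfkbia had log2 differences of 0.77 and 0.56, with overlapping libraries. Metabolic targets had higher means in all 10 tested members (median 0.27), beside 48.6% of all tested genes. Their log2 differences ran from 0.01 to 1.96, in a list chosen with earlier results of these libraries known. Irs2, an adaptor of the insulin receptor, was at 14.9, 9.06 and 11.6 FPKM in Rarres2-/- and 4.72, 4.36 and 5.59 FPKM in WT fat. For Irs2 the log2 difference was 1.10 (SE 0.196, adjusted p = 0.880 by limma). Pdk4, a kinase that shuts pyruvate dehydrogenase, was at 216, 68.9 and 97.5 FPKM in Rarres2-/- and 22.4, 17.0 and 59.1 FPKM in WT fat. Pdk4 had a log2 difference of 1.96 (SE 0.565, adjusted p = 0.999 by limma). Angptl4, an inhibitor of lipoprotein lipase, had a log2 difference of 1.21 with overlapping libraries.

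Growth, stress and clock targets were mixed, with 6 higher and 5 lower means among 11 tested (median 0.58). Ddit4, an inhibitor of mTORC1, was at 114, 88.4 and 70.6 FPKM in Rarres2-/- and 39.2, 14.9 and 16.7 FPKM in WT fat. The log2 difference of Ddit4 was 2.01 (SE 0.380, adjusted p = 0.888 by limma, higher in 3 of 3 Rarres2-/- libraries). Rasd1, a small G protein induced by dexamethasone, pointed the other way, at 55.7, 42.7 and 87.3 FPKM in Rarres2-/- and 143, 158 and 77.7 FPKM in WT fat. Its log2 difference was -1.01 (SE 0.359, adjusted p = 0.999 by limma), with overlapping libraries. Per1, a clock gene with a known receptor site, was at 16.2 to 30.4 FPKM in Rarres2-/- and 8.22 to 19.2 FPKM in WT fat, a log2 difference of 0.75.

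**Figure D5:**
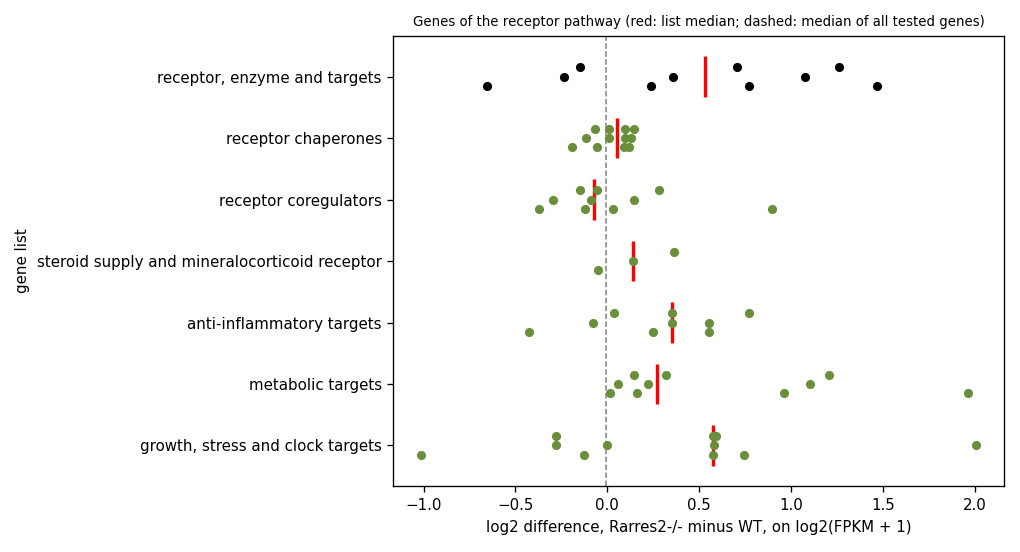
Log2 difference, Rarres2-/- minus WT, of each tested gene by list, with the list median in red and the median of all tested genes (-0.01) dashed. The receptor, its enzyme and targets (top row) run from -0.66 to 1.47 and the chaperones from -0.19 to 0.14.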

How the data were processed

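Inguinal fat RNA of Rarres2-/- and WT mice (n = 3 each) was measured by RNA-seq. The authors deposited FPKM, per the file headers. For WT replicate 3 the header gives a sample name where the unit should stand, and its values, on the scale of the other tables, were taken as FPKM. Bowtie and mm10 are named in the submitters' processing notes. The FPKM program, annotation, strandedness and handling of shared reads are not stated there. Rows without a symbol (737) were left out.

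Genes averaging 1 FPKM or more were fitted on log2(FPKM + 1) with limma 3.58.1 in R 4.3.3 (trend, two-sided, Benjamini-Hochberg over 11086 genes, genotype as the only term). The contrast was Rarres2-/- minus WT. The code was tested on simulated data. Relative depth came from ratios of values below 0.15 FPKM. Members, gene lists and alternatives were chosen with earlier results of these data known. Named genes are the members, up to 3 genes with the smallest p per pathway list, and the 4 closest profiles to Nr3c1 and Tsc22d3. A gene that this rule takes is not reported here. Hsd11b2, Nr3c2, Snord2 and the single marker genes were named after their values were seen. Alternatives changed the scaling, pseudocount, filter, weights, variance prior or libraries. Positions and promoter windows are from RefSeq on GRCm38, the assembly of mm10.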

Additional observations from a re-analysis of the deposited data

How the results depend on the processing

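No paired analysis was made because the labels tie no Rarres2-/- library to a WT library. Of 16 alternatives, 12 can move a log2 difference. Of the 120 differences of the 10 genes under these, 113 moved by less than 1 SD between libraries, 3 moved further and 4 changed sign. Leaving out 1 library of a genotype cannot shift a difference by 1 such SD, so those settings could show only a change of sign. The 113 is therefore not read as stability. The sign changes were Klf9 without WT replicate 1 (0.14), without WT replicate 1 and Rarres2-/- replicate 4 (0.13) and with array weights (0.0484), and Zbtb16 without Rarres2-/- replicate 6 (0.00104). With libraries left out, Klf9 ran from -0.35 to 0.14 and Zbtb16 from -1.54 to 0.00104. The median of the 10, 0.53 with all libraries, ran from 0.28 (without Rarres2-/- replicate 4) to 0.76 (without that library and WT replicate 1). Rarres2 was the 1 gene called with upper-quartile scaling, with the 20 most abundant genes kept out of the scaling, or with at least 5 FPKM in 3 libraries. With 1 library left out the count of called genes ran from 0 to 1. Without WT replicate 1 and Rarres2-/- replicate 4 it was 68, with 1 of the other pathway genes, Ddit4. Array weights, which gave Rarres2-/- replicates 4 and 5 weights of 0.179 and 6.19 and WT replicate 1 one of 0.192, called 1524 genes (13.7%) and 8 of the 55 pathway genes. The causes were not tested. FPKM holds no counts, so no counting error can be given.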

Other observations

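Mt2 was set against its neighbour Mt1 within each library, a ratio that does not depend on the scaling of libraries. Mt2 was at 0.624, 0.478 and 0.492 times Mt1 in Rarres2-/- replicates 4, 5 and 6, against 0.445, 0.414 and 0.376 times in WT replicates 1, 2 and 3. The genotypes did not overlap in this ratio, although they overlapped in Mt2 and in Mt1 alone. Mt1 was at 828 to 957 FPKM in Rarres2-/- and 667 to 1427 FPKM in WT fat. The ratio was chosen after the values were seen and was not tested. How reads shared between these similar genes were counted is not stated.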
